A study of Homo sapiens with 8 samples.

Results

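The transcripts described here are the long intergenic non-coding RNAs with the early HGNC numbers, that is every row of the table whose symbol is LINC00 followed by 3 digits. This rule gave 137 rows, which are 136 of the 25603 genes measured, since LINC00595 and LINC00856 share a gene identifier and the same values and were counted once. They were measured by RNA-seq in HepG2 cells, an established human hepatocarcinoma line, treated for 4 days with UNC1999 and Valmetostat Tosylate, each at 1 µM, which block the EZH1 and EZH2 enzymes (EZHi), or with the DMSO vehicle (0.2% per the labels). Each group held 4 libraries, all from this single line, so the cells are tumour cells and not primary hepatocytes. The question was how blocking EZH1/2 activity changes the transcriptome, here read out on the numbered long intergenic RNAs.

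A LINC number is given to a long RNA whose gene lies apart from coding genes and for which no function or relation to a neighbour was available to name it by, so the numbers group the RNAs by the history of their annotation and not by a shared role. Most such RNAs are spliced like mRNAs, are present at low levels, and are restricted to few tissues. EZH1 and EZH2 are the catalytic subunits of polycomb repressive complex 2 (PRC2), which methylates histone H3 at CpG-rich promoters of silent genes, long RNA genes included. In GENCODE (release 44, GRCh38), 135 of the 136 genes are typed as long non-coding RNAs under the same symbol, while LINC00672 is now listed as the protein-coding gene LASP1NB.

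The promoters of 4 members show the range of start sites that the results below concern, namely the riser with the largest difference (LINC00482), a riser next to a coding gene that also rose (LINC00920), a riser with a dense CpG start (LINC00899) and one of the most abundant members that was not called (LINC00963). Each is the RefSeq window (GRCh38.p14) of 250 bases before to 50 bases after the start, printed 5′ to 3′ along the gene's own strand, with every CG dinucleotide in capitals. LINC00482 is at chr17:81309199-81309498 (minus strand), LINC00920 at chr16:66408274-66408573 (plus strand), LINC00899 at chr22:46044819-46045118 (minus strand) and LINC00963 at chr9:129488410-129488709 (plus strand).
LINC00482: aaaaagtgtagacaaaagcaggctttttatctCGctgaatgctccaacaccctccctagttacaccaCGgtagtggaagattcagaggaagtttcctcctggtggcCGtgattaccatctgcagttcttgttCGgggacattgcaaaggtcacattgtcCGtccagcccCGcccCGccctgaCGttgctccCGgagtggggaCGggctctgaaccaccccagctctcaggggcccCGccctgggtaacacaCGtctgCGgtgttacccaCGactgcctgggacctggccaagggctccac
LINC00920: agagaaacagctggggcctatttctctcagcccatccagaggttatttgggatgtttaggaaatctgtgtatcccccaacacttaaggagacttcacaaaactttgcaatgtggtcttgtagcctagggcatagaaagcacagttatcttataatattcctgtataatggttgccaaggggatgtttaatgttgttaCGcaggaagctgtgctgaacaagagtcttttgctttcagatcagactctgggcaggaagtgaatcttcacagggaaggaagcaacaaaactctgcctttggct
LINC00899: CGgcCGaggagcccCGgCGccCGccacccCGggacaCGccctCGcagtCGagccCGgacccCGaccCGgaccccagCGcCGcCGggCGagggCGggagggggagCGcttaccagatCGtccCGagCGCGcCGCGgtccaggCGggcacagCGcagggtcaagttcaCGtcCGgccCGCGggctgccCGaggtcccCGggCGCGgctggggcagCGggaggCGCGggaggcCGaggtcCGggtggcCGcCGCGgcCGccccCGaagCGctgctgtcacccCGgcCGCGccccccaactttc
LINC00963: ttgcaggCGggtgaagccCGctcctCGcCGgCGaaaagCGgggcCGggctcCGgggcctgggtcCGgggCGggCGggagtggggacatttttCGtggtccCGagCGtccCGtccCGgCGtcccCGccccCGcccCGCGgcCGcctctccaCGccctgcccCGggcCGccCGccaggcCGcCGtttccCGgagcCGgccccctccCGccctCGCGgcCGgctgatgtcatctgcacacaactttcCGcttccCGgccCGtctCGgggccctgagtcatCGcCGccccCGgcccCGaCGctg
The windows of LINC00482, LINC00920, LINC00899 and LINC00963 hold 14, 1, 48 and 43 CG dinucleotides, respectively. RefSeq windows were found for 91 of the 136 members, and how CpG content relates to the calls over all members is given further on.

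The deposited values are regularized log2 values corrected for transcript length, and an estimated FPKM was derived from them to give levels per length. The methods describe a division by transcript length without saying on which scale it was made. The lowest values changed by -1.17 on the log2 scale per doubling of transcript length, where division by length would give -1, so levels compared between genes are approximate, and so is the filter. The LINC00 RNAs were low, with a median estimated FPKM of 0.144 over the 136 members against 1.10 over all genes of the table. Only 32 members reached an estimated FPKM of 1, and 3 reached 10. The 79 members whose estimated FPKM averaged 0.1 or more over the 8 libraries were tested, and the other 57 were not. The hepatocyte-like state of the cells was checked with marker genes, of which ALB (albumin), AFP (alpha-fetoprotein) and HNF4A (a hepatocyte transcription factor) had estimated FPKMs of 11210, 16090 and 266 in vehicle and were not called. Of the 8 hepatocyte markers, FGB (a fibrinogen chain) was called higher (log2 difference 0.92, limma adjusted p = 0.00167). Of the markers of other cell types, VWF (von Willebrand factor, endothelium) was called higher (log2 difference 1.45, limma adjusted p = 0.00537), while PECAM1 (endothelium) and COL1A1 (fibroblasts) were at 1.61 and 2.52 estimated FPKM in vehicle and were not called. PTPRC, CD68 and DCN are not among the genes of the table. EZH1 and EZH2 mRNAs differed by -0.07 and -0.06 (log2), with limma adjusted p = 0.573 and 0.806.

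Among the 79 tested LINC00 RNAs, 18 were called higher and 3 lower with EZHi (limma, adjusted p under 0.05 over all 20153 genes tested). The 18 are 22.8% of the tested members, where 8.85% of all genes tested were called higher. LINC00899, counted among them, passed the filter only through its EZHi libraries (estimated FPKM 0.0819 in vehicle and 0.123 in EZHi). Its call is therefore not independent of the filter, and the counts here and below include it. The 3 lower members are 3.80%, where 4.27% of all genes were called lower. All 18 were higher in 4 of 4 pairs of libraries with equal replicate number, and all 3 were lower in 4 of 4 pairs, so these 21 RNAs are the consistent risers and fallers. The split of higher and lower calls moved with the scaling of the libraries, to 11 and 6 with quantile normalization and to 21 and 0 when libraries were centred on genes of 10 estimated FPKM and over. At an unadjusted p under 0.05, 23 members were higher (all genes 14.7%) and 6 lower (all genes 12.0%). Of the 18 risers 4 reached a 2-fold change (3.21% of all genes were called higher by that much), while the lowest difference of any tested member was -0.47 (LINC00857, not called). EZHi and vehicle libraries did not overlap for 20 members with EZHi higher and for 3 with EZHi lower, where the backgrounds over all genes were 10.7% and 7.93%. These backgrounds depend on level. Between 0.1 and 1 estimated FPKM, 4 of 47 members were lower at an unadjusted p under 0.05, against 151 of 7146 genes. In that range 3 members lay wholly lower with EZHi, against 89 genes. Between 1 and 10, these counts were 2 and 0 of 29 members, against 383 and 253 of 5198 genes.

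**Figure D1:**
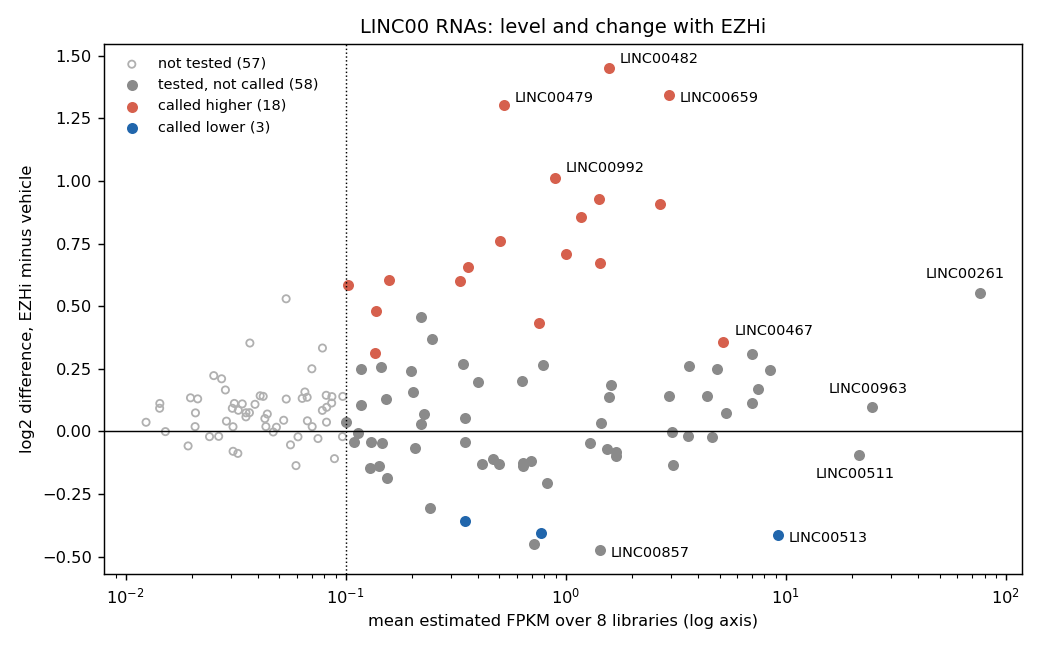
Log2 difference between EZHi and vehicle (y axis) against mean estimated FPKM over the 8 libraries (x axis, log scale) for the 136 LINC00 RNAs. The 18 RNAs called higher (red) lie between 0.103 and 5.20 estimated FPKM, the 3 called lower (blue) between 0.348 and 9.22, and the 57 RNAs left of the dotted line at 0.1 were not tested.

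Directions were also counted without the test. Of the 79 tested members 30 (38.0%) were higher in 4 of 4 pairs, against 20.6% of all genes tested. The count lower in 4 of 4 pairs was 9 (11.4%), against 24.2% of all genes. These backgrounds depend on level, as 44.6% of genes at 10 estimated FPKM and over were lower in 4 of 4 pairs. Between 0.1 and 1, 31.9% of members were higher and 12.8% lower in every pair, against 25.4% and 7.74% of all genes. Between 1 and 10, the shares were 48.3% and 10.3%, against 27.6% and 16.1%. The median log2 difference of the tested members was 0.11, with 48 of 79 (60.8%) positive. Over all genes tested it was -0.01, with 48.0% positive, but only 27.1% of genes at 10 estimated FPKM and over were positive. Between 0.1 and 1, where 47 of the 79 members lie, 57.45% of members were positive (median 0.07), against 65.5% of all genes (median 0.06). Between 1 and 10, 65.5% of members were positive (median 0.14), against 55.3% of all genes (median 0.03). With quantile normalization of the libraries the member median was -0.01 and 45.6% were positive. Quantile normalization also left 24 members higher and 25 lower in 4 of 4 pairs, so neither the sign of this small median nor the excess of higher over lower pairs held under it. Within the pairs 1 to 4 the member median was 0.11, 0.12, 0.11 and 0.12. The mean log2 value of the tested members was between 4.17 and 4.26 in the vehicle libraries and between 4.39 and 4.48 in the EZHi libraries. These means did not overlap between the groups. The medians of the same members nearly touched, at 3.890 to 4.097 in vehicle and 4.098 to 4.272 in EZHi. Among the 57 members under the filter 44 had a positive difference, 11 were higher and 9 lower in 4 of 4 pairs. Their differences ran from -0.14 to 0.53 (LINC00632). The same counts were not made over all genes under the filter, so they have no background here. In 7 of those 9 lower members at least 1 pair differed by less than 0.01, so their signs carry little information near the floor. This held for 0 of the 11 higher ones, which does not make their signs informative. For LINC00543, LINC00393 and LINC00839, among these 11, the vehicle libraries were almost equal (SD 0.0015, 0.0021 and 0.0028). Values at the floor can hardly move except upward, so the signs under the filter are not read as a change.

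Since low genes were called higher more often in this table, the share was also read by level. Between 0.1 and 1 estimated FPKM, 11 of 47 LINC00 RNAs (23.4%, LINC00899 included) were called higher, against 13.8% of the 7146 genes in that range. Between 1 and 10, the count was 7 of 29 (24.1%), against 11.3% of 5198 genes. At 10 and over none of the 3 members (LINC00261, LINC00963 and LINC00511) was called by limma, where 2.73% of 7809 genes were called higher, and 1 of the 3 had an unadjusted p under 0.05. For the lower direction, 2 of 47 members (4.26%) between 0.1 and 1 were called, against 0.392% of all genes in that range, and 1 of 29 (3.45%) between 1 and 10, against 2.25%. Other classes of long RNA had lower shares called higher, namely 28 of 273 LINC RNAs with later numbers (10.3%), 32 of 708 antisense RNAs (4.52%), 14 of 357 divergent transcripts (3.92%) and 7 of 53 microRNA and snoRNA host genes (13.2%), beside 1535 of 13480 protein-coding genes (11.4%). Their median log2 differences were 0.07, 0.05, 0.05, 0.11 and -0.03, respectively. Positive differences made up 63.0%, 61.7%, 61.3%, 75.5% and 43.6% of them, against 60.8% of the LINC00 RNAs. These shares and medians were not tested against each other.

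**Figure D2:**
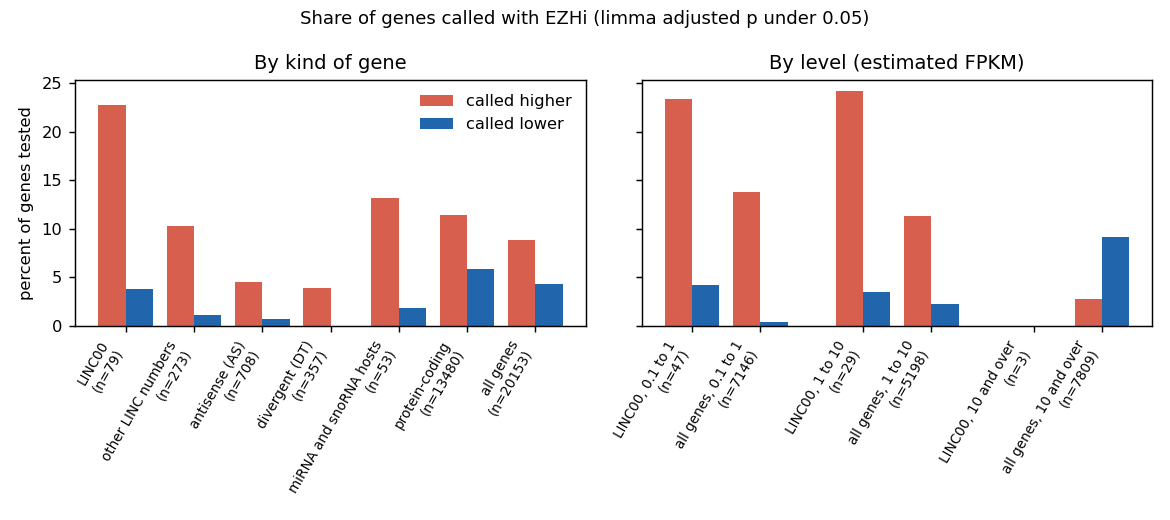
Percent of tested genes called higher (red) and lower (blue) with EZHi, by kind of gene (left) and by estimated FPKM (right), with the number tested under each pair of bars. The bar of LINC00 RNAs called higher stands at 22.8%, against 8.85% for all genes, and at 23.4% and 24.1% in the 2 lower level ranges.

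LINC00482 had the largest difference of the 79. Its gene lies on chromosome 17 (81303771 to 81309278, minus strand), 8224 bp from the amino acid transporter gene SLC38A10. Its log2 values were 4.60, 4.23, 4.37 and 4.46 in vehicle replicates 1 to 4 and 5.75, 5.51, 6.05 and 6.15 in EZHi replicates 1 to 4. Every EZHi library was thus at least 1 log2 unit above its paired vehicle library (1.15 to 1.69), and the mean difference was 1.45 ± 0.16 (SE, limma adjusted p = 0.000229), or 2.73-fold, from an estimated FPKM of 0.838 to 2.31. SLC38A10 itself was not called (log2 difference 0.13, limma adjusted p = 0.435).

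LINC00659, on chromosome 20 (62772980 to 62776996), is a neighbour of NTSR1, which encodes a neurotensin receptor, at 10209 bp. Its log2 values in vehicle were 5.19, 5.90, 5.08 and 5.40, and those in EZHi were 6.54, 6.71, 7.04 and 6.65. Vehicle replicate 2 was higher than the other vehicle libraries and still below the lowest EZHi library, and the difference was 1.34 ± 0.18 (SE, limma adjusted p = 0.00109). LINC00479, on chromosome 21 (41711520 to 41715775), was lower, at 2.89, 2.78, 2.99 and 3.12 in vehicle and 4.36, 4.25, 4.31 and 4.06 in EZHi. It had the smallest adjusted p of the members, with a difference of 1.30 ± 0.11 (SE, limma adjusted p = 5.3e-05). LINC00992, on chromosome 5 (117415509 to 117546298), completed the risers of 2-fold or more, with 4.21, 3.61, 3.81 and 4.04 in vehicle and 4.99, 4.88, 5.02 and 4.83 in EZHi. The EZHi libraries of LINC00992 were closer together (SD 0.09) than the vehicle libraries (SD 0.26), and the difference was 1.01 ± 0.14 (SE, limma adjusted p = 0.00103). With a pseudocount of 0.5 or 1 estimated FPKM added before the log, 2 and 0 members reached a 2-fold change instead of 4.

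A second set of risers changed by about 1.5- to 2-fold. LINC00920 (chromosome 16, 66408516 to 66412135) was at 4.35, 4.47, 4.49 and 4.38 in vehicle and 5.33, 5.14, 5.45 and 5.19 in EZHi. Replicates of each group were tight, and the difference was 0.86 ± 0.10 (SE, limma adjusted p = 0.000517). LINC00494 (chromosome 20, 48359884 to 48370636) was at 5.12, 5.25, 5.90 and 5.83 in vehicle and at 5.98, 6.05, 6.94 and 6.76 in EZHi. Its replicates 3 and 4 were high in both groups, so that EZHi replicate 1 was only just above vehicle replicate 3 although each pair differed by 0.80 to 1.04. The difference of 0.91 ± 0.26 (SE) therefore stood close to the threshold (limma adjusted p = 0.0488) and well inside it with the replicate block (limma adjusted p = 0.000117). LINC00654, LINC00870, LINC00623, LINC00491, LINC00652, LINC00683 and LINC00858 had log2 differences of 0.93, 0.76, 0.71, 0.67, 0.66, 0.61 and 0.60, and their limma adjusted p ran from 0.00116 to 0.0212. With quantile normalization LINC00494, LINC00870, LINC00491 and LINC00683 were at 0.77, 0.55, 0.46 and 0.45 and were not called (limma adjusted p = 0.0868, 0.0566, 0.103 and 0.0551). For LINC00683 the groups overlapped, since vehicle replicate 4 (1.99) was above EZHi replicate 2 (1.97). It also lay near the filter (estimated FPKM 0.125 in vehicle and 0.189 in EZHi), and its difference was as low as 0.081 over the alternative settings.

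The remaining risers had small and even differences. LINC00899, from the CpG-dense start shown above, was at 1.12, 1.01, 1.03 and 1.11 in vehicle and 1.49, 1.92, 1.58 and 1.61 in EZHi, a difference of 0.58 ± 0.09 (SE, limma adjusted p = 0.00209). With vehicle and EZHi estimated FPKMs of 0.0819 and 0.123, it passed the filter only through its EZHi libraries. LINC00467, an RNA described as raised in several tumours, was the most abundant riser, at 6.88, 6.92, 6.81 and 6.86 in vehicle and 7.24, 7.25, 7.29 and 7.11 in EZHi. All EZHi libraries were above all vehicle libraries, and the difference was 0.36 ± 0.08 (SE, limma adjusted p = 0.0149). With quantile normalization LINC00467 was at 0.28 (limma adjusted p = 0.0528) and was not called. LINC00327, LINC00638 and LINC00278, the latter on chromosome Y, rose by 0.48, 0.43 and 0.31 on the log2 scale (limma adjusted p = 0.00212, 0.0133 and 0.0253), and with quantile normalization LINC00638 and LINC00278 were at 0.22 and 0.18 and were not called (limma adjusted p = 0.152 and 0.170). LINC00327 and LINC00278 lay just above the filter, at estimated FPKMs of 0.115 and 0.122 in vehicle and 0.160 and 0.151 in EZHi. Over the alternative settings their differences were as low as 0.058 and 0.038.

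**Figure D3:**
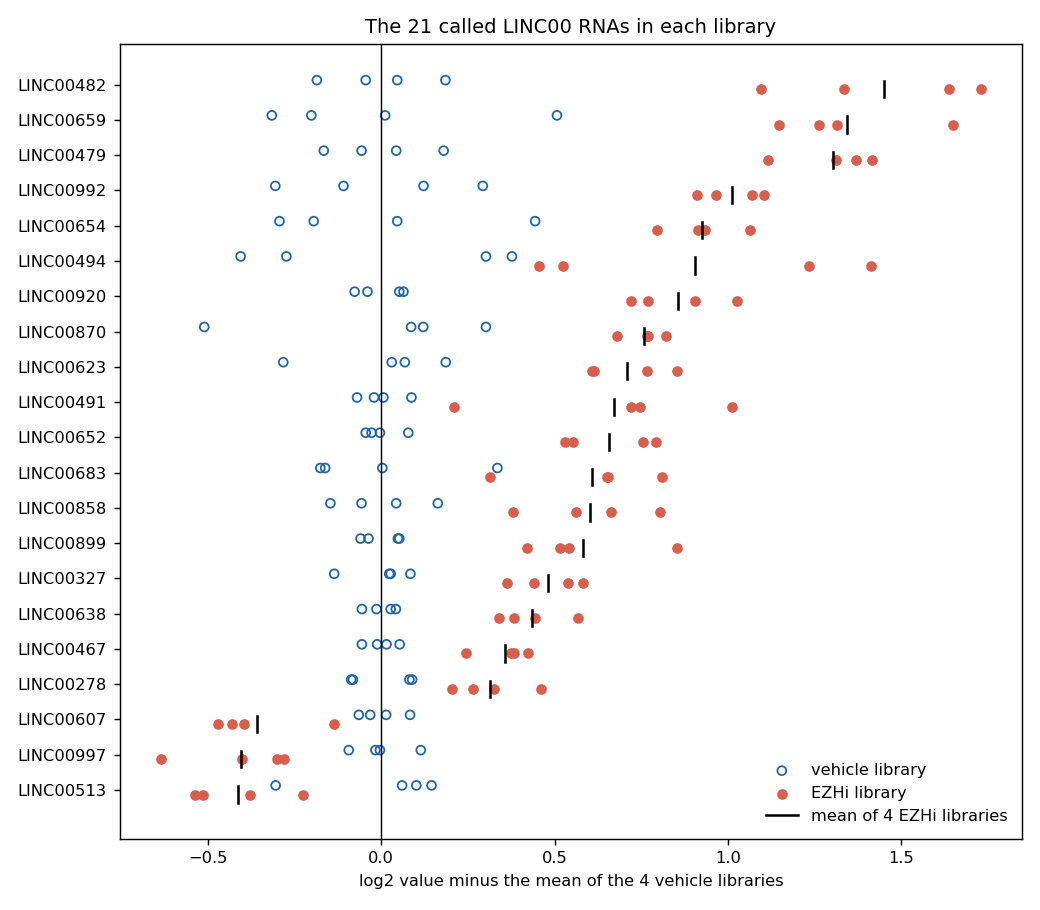
Log2 value of each library minus the mean of the 4 vehicle libraries (x axis) for the 21 called LINC00 RNAs (y axis), with open blue circles for vehicle, filled red circles for EZHi and a black bar for the EZHi mean. All EZHi circles of LINC00482 lie more than 1 unit to the right of the vehicle mean, while 1 vehicle library lies among the EZHi libraries for LINC00513 and above the lowest of them for LINC00683.

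The 3 fallers fell by less than the larger risers rose. LINC00513, on chromosome 7 (130853720 to 130930682), was also among the 6 most abundant members, with log2 values of 8.13, 8.17, 7.76 and 8.21 in vehicle and 7.69, 7.84, 7.55 and 7.53 in EZHi. Vehicle replicate 3 lay within the EZHi range, so the groups overlapped, although each pair was lower with EZHi, and the difference was -0.41 ± 0.12 (SE, limma adjusted p = 0.0448). LINC00997, also on chromosome 7 (32760279 to 32762924), was at 4.40, 4.61, 4.48 and 4.49 in vehicle and 4.09, 4.19, 3.86 and 4.21 in EZHi, a difference of -0.40 ± 0.11 (SE, limma adjusted p = 0.0399). LINC00607, on chromosome 2 (215611563 to 215848954), was at 3.29, 3.40, 3.26 and 3.34 in vehicle and 2.93, 3.18, 2.89 and 2.85 in EZHi, a difference of -0.36 ± 0.10 (SE, limma adjusted p = 0.0360). For both of these RNAs every EZHi library was below every vehicle library. All 3 share exonic bases with another annotated gene (19.4%, 10.96% and 1.51% of their exons), and reads were counted without regard to strand. The same holds for 2 of the 18 risers (LINC00623, 10.3%, and LINC00652, 9.97%) and for 20 of the 58 members not called.

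These calls differed in how well they held when 1 library was left out. Leaving out each of the 8 libraries in turn, 14 of the 21 RNAs were called in all 8 fits, all of them risers and LINC00899 among them. LINC00494 (log2 difference 0.74 to 1.06 over these fits) lost its call without vehicle replicate 1, 2 or 4 or EZHi replicate 3 or 4, and LINC00491 (0.56 to 0.82) without vehicle replicate 1 or 4 or EZHi replicate 1 or 2. LINC00683 (0.54 to 0.72) lost it without EZHi replicate 4, and LINC00278 (0.26 to 0.35) without vehicle replicate 2 or 4 or EZHi replicate 1 or 3. LINC00997 (-0.45 to -0.33) was called in none of the 8 fits. LINC00513 (-0.52 to -0.37) and LINC00607 (-0.43 to -0.32) were called in 2 of 8, both losing the call without vehicle replicate 1, 2 or 4 or EZHi replicate 1, 3 or 4. The count called lower was consequently 0 without any of these 6 libraries, with unchanged signs, while the count called higher stayed between 15 and 19.

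Libraries of equal replicate number deviated together, and a fit with the replicate number as a block called 24 of the 79 members higher (all genes 14.9%) and 6 lower (all genes 15.1%), including all 21 RNAs above. These backgrounds depend on level, as 2538 of 7809 genes at 10 estimated FPKM and over were called lower with the block. Between 0.1 and 1, 13 of 47 members were called higher and 4 lower, against 1361 and 86 of 7146 genes. Between 1 and 10, 10 of 29 members were called higher and 2 lower, against 1002 and 424 of 5198 genes. LINC00261 is the most abundant LINC00 RNA of these cells, with an estimated FPKM of 76.2. It is an endoderm long RNA transcribed next to FOXA2, which encodes a pioneer transcription factor of endoderm and liver. Its log2 values were 10.44, 10.11, 11.13 and 10.68 in vehicle and 10.99, 10.77, 11.55 and 11.27 in EZHi. The groups overlapped, but each EZHi library was above its pair by 0.42 to 0.66. The difference of 0.55 ± 0.22 (SE) was not called without the block (limma adjusted p = 0.140) and was called with it (SE 0.05, limma adjusted p = 7.5e-05) and without vehicle replicate 3 (log2 difference 0.73). FOXA2, at 2356 bp, had the same pattern at a smaller size, with a difference of 0.23 (limma adjusted p = 0.224, and 0.0144 with the block).

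The block also added LINC00624, LINC00342, LINC00888, LINC00907 and LINC00863 to the higher calls and LINC00313, LINC00862 and LINC00857 to the lower ones. Their differences were 0.37, 0.31, 0.26, 0.26, 0.25, -0.31, -0.45 and -0.47, with limma adjusted p of 0.0097 to 0.0451 with the block and 0.0506 to 0.489 without. Just outside the threshold of the fit without the block were LINC00624, LINC00888 and LINC00862 (limma adjusted p = 0.0506, 0.0689 and 0.0703), and just inside were LINC00494, LINC00513 and LINC00997. The other members of highest level, LINC00963 and LINC00511, both described as raised in tumours, had estimated FPKMs of 24.7 and 21.6 and differences of 0.10 ± 0.09 and -0.09 ± 0.12 (SE, limma adjusted p = 0.546 and 0.675), with EZHi and vehicle libraries overlapping. LINC00667 differed by 0.17 ± 0.08 (SE, limma adjusted p = 0.234).

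**Figure D4:**
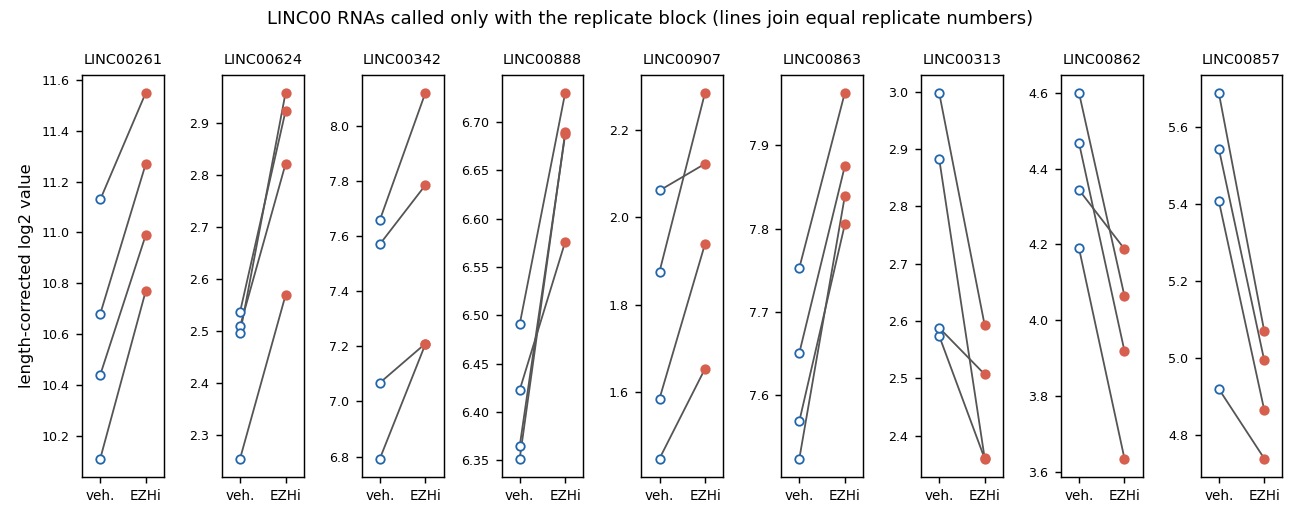
Length-corrected log2 values (y axes, each on its own scale) of the 9 LINC00 RNAs called only with the replicate block, in vehicle (open circles) and EZHi (filled circles), with lines joining libraries of equal replicate number. In every panel all 4 lines run the same way, upward in 6 panels and downward in 3, and LINC00261 rises by 0.42 to 0.66 in each pair.

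A list of 20 LINC00 RNAs described in tumours was read as a group. Of these 14 were in the table and 10 were tested, 1 was called higher (LINC00467, where 8.85% of all genes were) and 0 lower, with 8 positive differences and a median of 0.13. The block added LINC00261 as higher and LINC00857 as lower. The others tested (LINC00205, LINC00339, LINC00511, LINC00662, LINC00665, LINC00958 and LINC00963) had differences between -0.09 and 0.25, with limma adjusted p of 0.386 to 0.675 without the block. With quantile normalization the signs of LINC00339 and LINC00665 turned to -0.01 and -0.02.

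Next, the distance to the nearest coding gene was read for each tested member, beside the 8.85% of all genes called higher (14.9% with the block). Of 15 members whose gene overlaps a coding gene body 0 were called higher, and 2 were with the block, as were 2 at an unadjusted p under 0.05 (all genes 14.7%). Of 18 members within 5 kb 1 was called higher (LINC00920), and with the block 3 were higher and 2 lower. Between 5 and 50 kb 12 of 28 were called higher (with the block 13 higher and 1 lower). Beyond 50 kb 5 of 18 were called higher and 3 lower, which are all the fallers (with the block 6 higher and 3 lower, where 4.27% of all genes were called lower without the block and 15.1% with it). The classes were not tested against each other, and these backgrounds depend on level, as given above. The median estimated FPKM of the 4 distance classes was 0.401, 0.754, 0.878 and 0.639, and their median log2 differences were 0.07, 0.11, 0.26 and 0.12. The 18 risers were spread over 13 chromosomes, 4 of them on chromosome 20 (LINC00659, LINC00654, LINC00494 and LINC00652), where 5 members were tested and 9.28% of all 593 genes tested were called higher. They had a median gene span of 24425 bp, mean transcript length of 1477 bp and 4.5 exons, compared with 16886 bp, 1463 bp and 4.5 exons in the 58 tested members that were not called.

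Nearest coding genes were then read beside the RNAs. The 18 risers have 18 distinct nearest coding genes, of which 16 were tested, and 5 of these were called higher and 0 lower, where 11.4% of the 13480 protein-coding genes tested were called higher and 5.89% lower. With the block 7 were called higher and 0 lower, where 18.6% and 21.1% of protein-coding genes were. The highest of them was CDH5, which encodes VE-cadherin of endothelial junctions, 3732 bp from LINC00920, with a log2 difference of 2.28 ± 0.39 (SE, limma adjusted p = 0.00411). VWF, another endothelial gene, also rose as given above and PECAM1 was not called, and the part of such markers in this result was not tested. TRAF5 (an adaptor of TNF receptors, 7790 bp from LINC00467) rose by 1.79 and PREX1 (an activator of the GTPase Rac, 253616 bp from LINC00494) by 1.71 on the log2 scale. RGR (an opsin, 7787 bp from LINC00858) rose by 1.30 and SEMA6A (a transmembrane semaphorin, 840686 bp from LINC00992) by 1.06. Limma adjusted p of these 4 genes ran from 3.1e-05 to 0.0160. CDH5, TRAF5, PREX1, RGR and SEMA6A had estimated FPKMs of 0.999, 1.69, 0.447, 0.276 and 15.2. The median of the protein-coding genes tested was 13.3. Low genes were called higher more often in this table, and the protein-coding shares above were not matched for level. The neurotensin receptor gene NTSR1 near LINC00659 (log2 difference 0.73, limma adjusted p = 0.0854, and 0.00693 with the block) and GPCPD1 near LINC00654 (0.35, limma adjusted p = 0.297, and 0.00587 with the block) were added by the block.

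Of the 16 tested neighbours of risers 13 had a positive difference, with a median of 0.13. Among the 58 tested LINC00 RNAs that were not called, 49 had a tested nearest coding gene, of which 3 were called higher (SAMD11 near LINC00115, TNFAIP2 overlapping LINC00677 and CPN2 near LINC00887, with log2 differences of 1.88, 1.04 and 0.55), 20 were positive and the median was -0.04. With the block 6 of these 49 were called higher and 12 lower. Distances differ between these sets, with medians of 21520 bp for risers and 2963 bp for members that were not called, and the difference in share was not tested. Most risers had no called neighbour, such as LINC00479 by RIPK4 (a protein kinase, log2 difference 0.12), LINC00870 by RYBP (a polycomb complex 1 subunit, -0.13) and LINC00899 by WNT7B (a Wnt ligand, 0.02).

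**Figure D5:**
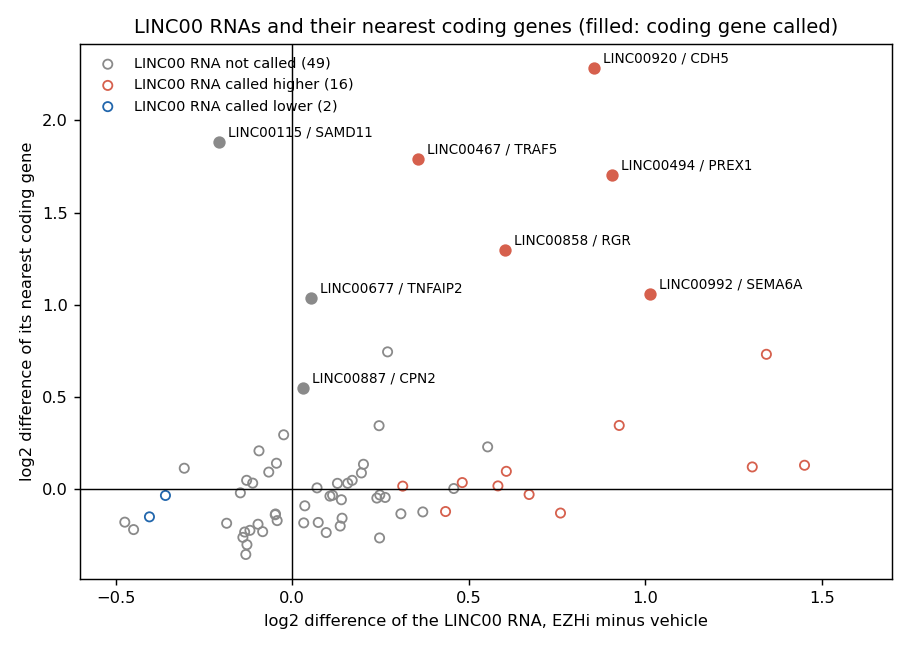
Log2 difference of the nearest protein-coding gene (y axis) against that of the LINC00 RNA (x axis), EZHi minus vehicle, for tested RNAs with a tested neighbour, with filled points where the coding gene was called. Of the 16 risers (red) 5 have a called neighbour, led by LINC00920 and CDH5 at 2.28, and of the 49 RNAs not called (grey) 3 do.

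CpG content at the start was compared over all members in windows of 300 bp around the GENCODE gene start (GRCh38), counting a window as CpG-rich at 50% GC or more with a ratio of observed to expected CG of 0.6 or more. Of the 18 risers 4 were CpG-rich (22.2%; LINC00467, LINC00482, LINC00623 and LINC00899), of the 3 fallers 0, and of the 58 members not called 20 (34.5%). Of these, LINC00899 passed the filter only through its EZHi libraries. CpG-rich starts were less common here than in the table as a whole, at 55.4% of all genes tested with a window. Of the 24 tested members with such a start 4 were called higher (16.7%), and of the 55 others 14 (25.5%), beside 8.12% and 9.76% over all genes. These shares depend on which start is taken, since RefSeq and GENCODE starts differ for some genes. Of 14 risers with a RefSeq window, 4 had a window of the other class there (LINC00482, LINC00623, LINC00652 and LINC00654), as did 6 of 39 members not called. LINC00482 had a ratio of 0.61 around the GENCODE start and 0.55 in the RefSeq window printed above. LINC00963, with 43 CG in the printed window, held 5 around its GENCODE start and counts there as not CpG-rich.

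Reads of some members can be shared with near-identical copies. In a search of their transcripts against all GENCODE transcripts (98% identity over at least 150 bp), the whole of a LINC00623 transcript was matched in other genes (9 genes, LINC01145 covering the most), 79.1% of one of LINC00654, 58.3% of one of LINC00278 and 43.4% of one of LINC00683, so the levels of these 4 risers are uncertain. LINC00863 (99.8%) and LINC00665 (82.2%), which were not called without the block, were also affected. The other 14 risers and all 3 fallers had no such match.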

How the data were processed

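HepG2 mRNA was sequenced with paired reads of 150 bp in 4 vehicle and 4 EZHi libraries, whose groups and numbers are those of the titles. The replicates were biologically independent according to the methods. The authors mapped reads to hg38 with HISAT2, counted them over exons with HTSeq (union mode, no strand, minimum quality 10), removed genes with fewer than 10 reads over all samples, and applied the regularized log of DESeq2 with a correction for mean transcript length. HISAT2 2.2.1, HTSeq 0.9.1 and DESeq2 1.40.2 are named in the submitters' processing notes, and the methods name other versions of HISAT2 and DESeq2. The deposited table is named as FPKM, but its values are on a log2 scale. The regularized log understates changes of genes with few reads. Read depth cannot be recovered from these values.

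Levels were expressed as estimated FPKM, by dividing 2 to the power of the deposited value by the mean library sum of such values multiplied by transcript length. The 20153 genes averaging 0.1 or more were tested two-sided with limma 3.58.1 (R 4.3.3; trended eBayes, group only, no pseudocount), p-values were adjusted by the Benjamini-Hochberg method over these genes, and an adjusted p under 0.05 is called. The script was tested on simulated data. Deviations of equally numbered libraries from their group means correlated at 0.310, 0.558, 0.634 and 0.216 in replicates 1 to 4 (20153 genes). The numbers were therefore taken to pair the libraries, from the data and not from a label. Libraries of unequal number were not correlated, so these values cannot show that equal numbers are the true pairs. The block and the counts over pairs rest on this choice.

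The members, the tumour list, the comparison classes, the rule for named genes and the alternatives were chosen with earlier results of these data known. The rule took the 20 consistent risers and 10 consistent fallers with the largest change, the 6 members of highest level, the tested members of the tumour list, and the 3 called and 3 not called members nearest to the threshold. Members called only with the block, members singled out for a detail, and coding neighbours of members other than risers and fallers were named after their values were seen, and the CpG and copy searches were added later. Coordinates are from GENCODE release 44, copies from BLAST+ 2.17.0, and tables from Python 3.11.15 with pandas 2.3.3, numpy 2.4.6 and matplotlib 3.10.9.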

Additional observations from a re-analysis of the deposited data

Results flagged for a closer look

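In 70 groups of 4 libraries (35 named LINC00 RNAs in vehicle and in EZHi), 1 library stood apart from the other 3 of its group by Dixon's test, where chance gives about 3.5. This was LINC00624 in vehicle replicate 2, at a log2 value of 2.25 against 2.50 to 2.54 in the other vehicle libraries, a gap of 0.857 of the group's range. Without that library the difference of LINC00624 was 0.30, compared with 0.37 with all libraries, and it was not called in either case.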

How the results depend on the processing

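The 18 higher calls were least stable to quantile normalization and the 3 lower calls to scaling and to leaving out 1 library, whichever it was for LINC00997. With quantile normalization 11 members were called higher (all among the 18) and 6 lower (including the 3), 25 were lower in every pair, and the median log2 difference was -0.014 with 45.6% positive (median of all genes -0.06, from -0.01 as deposited). Centred on genes of 10 estimated FPKM and over (median of all genes 0.07), 21 were called higher (including the 18) and 0 lower, 5 were lower in every pair, and the median was 0.19 with 74.7% positive. A filter at 1 estimated FPKM tested fewer members and called 7 higher, 2 of them at 2-fold, and 1 lower, with 15 higher and 3 lower in every pair, a median of 0.138 and 65.6% positive. Without a filter 22 were called higher and 2 lower, 18 were lower in every pair, and the median was 0.088 with 67.7% positive. Pseudocounts of 0.1, 0.5 and 1 gave medians of 0.096, 0.050 and 0.028, and the last 2 left 2 and 0 members at 2-fold, since added constants shrink low values. The replicate block raised the lower calls to 6 and the higher ones to 24 and lost none of the 21, and beyond the calls given with it above it changed no other call among the members. Leaving out single libraries gave 15 to 19 higher and 0 to 3 lower calls, up to 16 members lower in every remaining pair, and medians of 0.083 to 0.131 with 60.8% to 68.4% positive. Under the alternatives LINC00339 (-0.0070) and LINC00665 (-0.021) changed sign, both with quantile normalization, and 10 of the 21 called RNAs lost the call in at least 1 of 10 settings; the cause was not tested. Median-of-ratios scaling kept all 18 and 3 calls. The untrended prior also gave 18 and 3, but 17 of its higher calls were among the 18, as LINC00494 lost its call and LINC00888 gained one. Depth is unknown, so differences of RNAs under 0.1 estimated FPKM were not tested and cannot be read as absent.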
